A study of Caenorhabditis elegans with 30 samples.

Results

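The astacin genes of Caenorhabditis elegans that carry the name nas (nematode astacin) were followed across 6 genotypes. Members were all genes whose common name in the deposited tables is nas followed by a number, which gave 36 of 20484 listed genes. Of these, 21 had at least 5 FPKM (a fragment count scaled by transcript length and by the size of the library) in at least 1 genotype. The other 15 stayed under 5 FPKM in all 6. The members nearest to that line were nas-12 (highest value 5.48 FPKM), nas-5 (6.16) and nas-29 (7.85) inside it, and nas-13 (4.12), nas-39 (3.89) and nas-25 (3.41) outside it.

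Whole worms were grown at 20 °C on OP50 bacteria from bleach-synchronised populations and collected at the late L4 stage, just before the last moult. The genotypes were wild type (WT), daf-2(e1370), with reduced insulin receptor signalling, nuo-6(qm200), with an altered subunit of respiratory complex I, and the H3.3 double mutant his-72(tm2066); his-71(ok2289). Each of the 2 long-lived mutants was also crossed with the double mutant, carrying the same alleles, which gave the strains named the daf-2 triple and the nuo-6 triple mutant below. Every genotype had 5 biological replicates, 30 samples in all. Histone H3.3 is the H3 form put into chromatin outside replication. H3.3 loss is used below for the absence of both his-71 and his-72, although the worm has further genes for H3.3. All mutations were present in the whole animal.

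Astacins are secreted zinc metalloproteases, made as inactive precursors and named after a digestive enzyme of crayfish. In the worm the family has grown large, and its known members act on extracellular matrix: they help to shed the old cuticle at each moult, to process cuticle collagens, to build the pharynx and to open the eggshell. Members are usually divided into subgroups by the domains that follow the catalytic domain, which are absent in subgroup I, a ShK toxin domain in II, EGF-like and CUB domains in III, these with a ShK domain in IV, these with a thrombospondin domain in V, and the repeated domains of the BMP-1/tolloid type in VI.

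Each genotype had 1 deposited FPKM value per gene, without values per replicate, so that the spread between replicates is unknown and no difference could be tested. Depth is unknown as well. A gene was compared between 2 pools (the pooled value of a genotype) where the higher pool had at least 5 FPKM and neither was listed at 0, and was called higher or lower from a ratio of 2 upwards. The share of all compared genes called the same way is given for each comparison. In bulk worms, fewer cells of a type and less RNA per cell cannot be told apart. The deleted genes fitted the labels: his-71 had 223 to 344 FPKM in the pools with H3.3 and 0.276 to 0.372 in those without, and his-72 had 226 to 418 and 0.293 to 0.408. Per pool, 10410 to 11115 genes had 5 FPKM or more. The pools differed in stage markers. A list of 10 adult onset genes (yolk proteins and adult cuticle collagens) summed to 417 FPKM in WT, 217 in the double mutant, 9.93 in daf-2, 6447 in the daf-2 triple mutant, 3457 in nuo-6 and 85.5 in the nuo-6 triple mutant, with no gene at 0. Different genes carried these sums. In WT they were mainly the collagen genes bli-1 and bli-2 (90.6 and 272 FPKM). In the daf-2 triple mutant they were mainly the yolk protein genes vit-2, vit-6 and vit-5 (2435, 2348 and 1225), with bli-1 and bli-2 at 5.11 and 19. A list of 26 genes of the moulting cycle summed to 5263, 4454, 2859, 2070.4, 2549 and 3671 FPKM in the same order of pools, again with none at 0. It includes the cuticle collagen genes dpy-7, dpy-10, rol-6, sqt-1 and sqt-3, which weigh heavily in the sum (sqt-3 had 1376 FPKM and sqt-1 847 in WT). The part of stage in the results below was not tested.

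Members were spread over 6 chromosomes, with 13 on chromosome V, 8 on X, 5 on II, 4 on IV and 3 each on I and III. By subgroup, 4 of 5 members of I, 8 of 10 of II, 5 of 14 of III, 1 of 2 of IV, 3 of 4 of V and 0 of 1 of VI reached 5 FPKM. The highest member was nas-11 in subgroup II (51.8 FPKM), nas-37 in V (45.7), nas-3 in I (27.6), nas-20 in III (25.7) and nas-31 in IV (8.52). Only 8 members stood at or above 5 FPKM in all 6 pools: nas-4, nas-7, nas-9, nas-11, nas-15, nas-36, nas-37 and nas-38. Members at that level numbered 15 in WT, 18 in the double mutant, 13 in daf-2, 18 in the daf-2 triple mutant, 9 in nuo-6 and 17 in the nuo-6 triple mutant. Summed over the family, the level was 326 FPKM in WT, 344 in the double mutant, 253 in daf-2, 267 in the daf-2 triple mutant, 202 in nuo-6 and 303 in the nuo-6 triple mutant. The FPKM of all genes summed to 935102 in the daf-2 triple mutant and to more in every other pool. Per 10000 of that sum the family had 2.5 in WT, 2.8 in the double mutant, 1.95 in daf-2, 2.85 in the daf-2 triple mutant, 1.34 in nuo-6 and 2.57 in the nuo-6 triple mutant. The nuo-6 pool was lowest by number, sum and share, while the highest pool was the double mutant by sum and the daf-2 triple mutant by share. Of the 21 members that reached 5 FPKM, 12 had their lowest value in nuo-6 and 10 had their highest in the double mutant. The same was not counted over all genes, so these numbers have no baseline. The ratio of highest to lowest pool had a median of 4.07 over these 21. It was 2.6 over all 12836 genes that reached 5 FPKM in at least 1 pool and were above 0 in every pool. These genes were not matched to the members by level. Both sets were chosen by their highest pool, which favours wide ratios, and nas-12 and nas-28 reached 5 FPKM in 1 pool only.

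**Figure D1:**
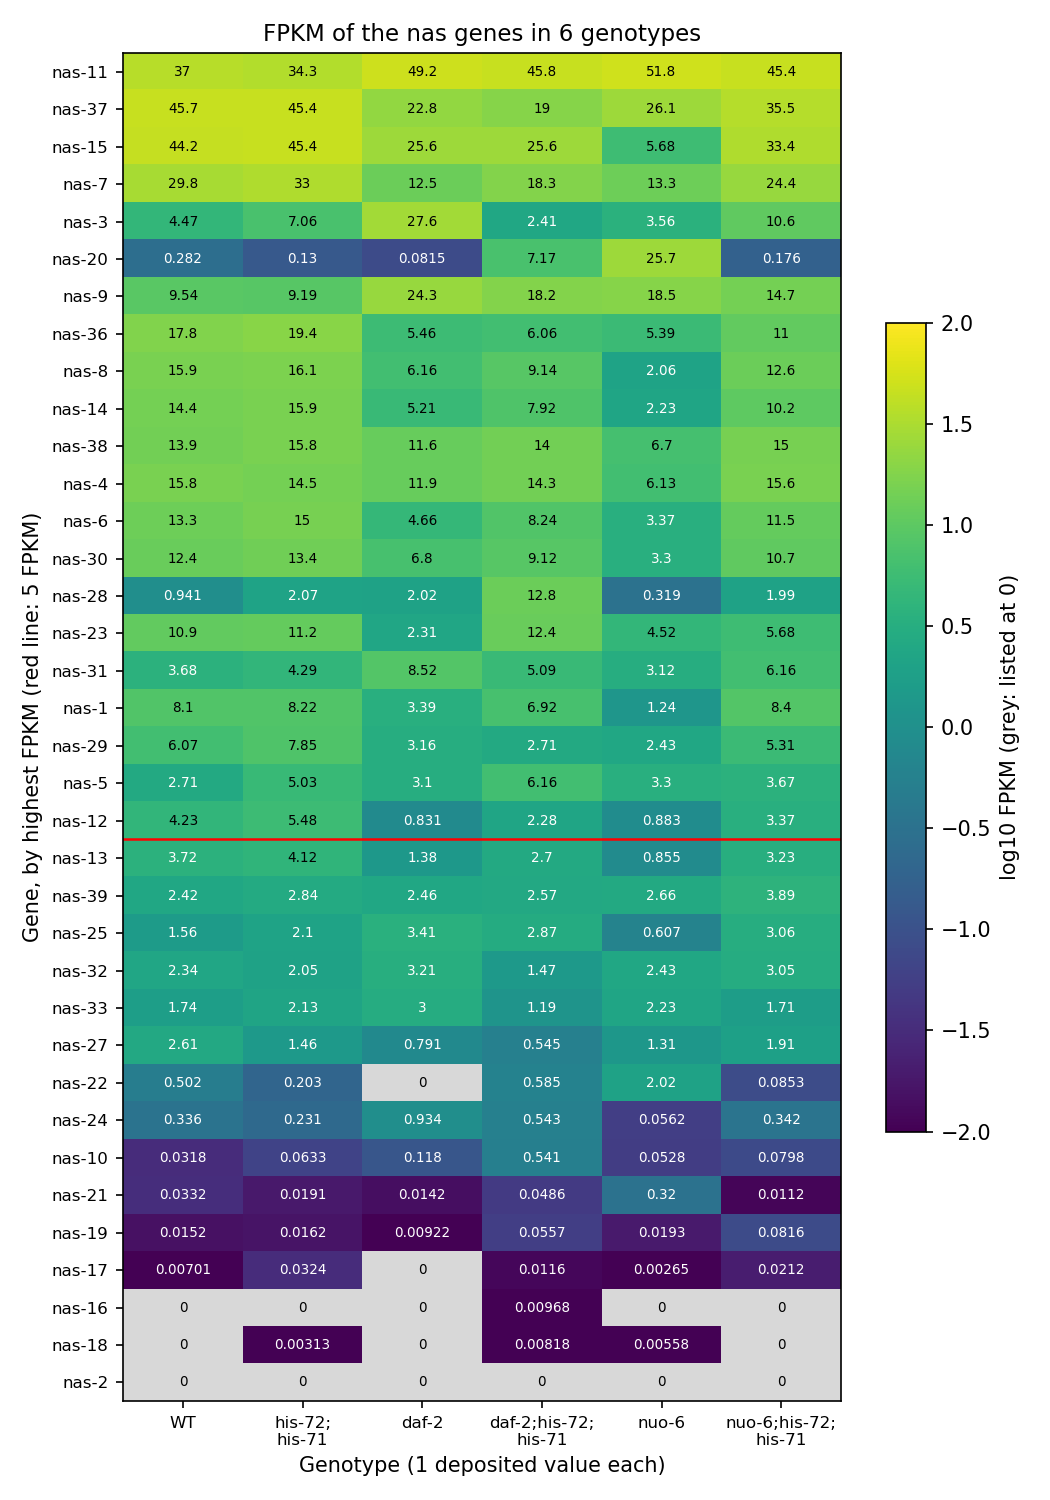
FPKM of all 36 nas genes in the 6 genotypes, ordered by their highest value, with colour on a log10 scale and grey for values listed at 0. The red line separates the 21 genes that reached 5 FPKM in at least 1 pool from the 15 that did not, and the nuo-6 column has the fewest genes at that level, 9.

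The moulting proteases came first. nas-37 (WBGene00003553, chromosome X, 9944848 to 9949060), which is needed to shed the old cuticle and is made in the hypodermis before each moult, had 45.7 FPKM in WT, 45.4 in the double mutant, 22.8 in daf-2, 19 in the daf-2 triple mutant, 26.1 in nuo-6 and 35.5 in the nuo-6 triple mutant. WT and the double mutant were alike and highest, and both pools with the daf-2 mutation were lowest. It was 2.01-fold lower in daf-2 than in WT and 2.39-fold lower in the daf-2 triple than in the double mutant. nas-36 (WBGene00003552, chromosome I, 7527307 to 7531699), also needed for moulting, had 17.8, 19.4, 5.46, 6.06, 5.39 and 11 FPKM in that order. Its levels fell into a high pair, WT and the double mutant, and a low group of daf-2, the daf-2 triple mutant and nuo-6, with the nuo-6 triple mutant between them. The daf-2 mutation went with a 3.25-fold lower level with H3.3 and a 3.2-fold lower level without it. The nuo-6 mutation went with a 3.29-fold lower level with H3.3, and with a ratio of 1.76 in the same direction without it. nas-38 (WBGene00003554, chromosome X, 558141 to 563657), whose activity promotes the sleep that accompanies moulting, had 13.9, 15.8, 11.6, 14, 6.7 and 15 FPKM. Here the nuo-6 pool alone stood apart, 2.07-fold under WT and 2.24-fold under the nuo-6 triple mutant. Both of these last ratios have the nuo-6 value in common.

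Several members are tied to the pharynx, the muscular feeding organ whose cuticle is replaced at each moult. nas-6 (WBGene00003525, chromosome IV, 17486982 to 17490497), which is needed to form the grinder, the part of the pharynx that crushes bacteria, had 13.3 FPKM in WT, 15 in the double mutant, 4.66 in daf-2, 8.24 in the daf-2 triple mutant, 3.37 in nuo-6 and 11.5 in the nuo-6 triple mutant. Both long-lived single mutants were lowest, and the triple mutants lay between them and WT. nas-7 (WBGene00003526, chromosome II, 7399010 to 7402707), annotated in pharynx and hypodermis, had 29.8, 33, 12.5, 18.3, 13.3 and 24.4 FPKM, an order much like that of nas-6. It shares its listed locus with C07D10.1, so its values are uncertain. nas-15 (WBGene00003534, chromosome X, 777721 to 780514), annotated in pharyngeal muscle and marginal cells, had 44.2, 45.4, 25.6, 25.6, 5.68 and 33.4 FPKM. Its nuo-6 value was 7.77-fold under WT. The daf-2 pools with and without H3.3 had the same level to 3 digits.

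nas-14 (WBGene00003533, chromosome IV, 13170544 to 13173694), annotated in the pharynx, had 14.4 FPKM in WT, 15.9 in the double mutant, 5.21 in daf-2, 7.92 in the daf-2 triple mutant, 2.23 in nuo-6 and 10.2 in the nuo-6 triple mutant. nas-1 (WBGene00003520, chromosome III, 13406000 to 13409286), with pharynx and arcade cell terms, had 8.1, 8.22, 3.39, 6.92, 1.24 and 8.4 FPKM. Both were lowest in nuo-6, 6.47-fold and 6.52-fold under WT. nas-4 (WBGene00003523, chromosome III, 6411580 to 6414993), annotated in pharynx and intestine, varied less, with 15.8, 14.5, 11.9, 14.3, 6.13 and 15.6 FPKM, and only the nuo-6 value lay more than 2-fold from WT. nas-8 (WBGene00003527, chromosome IV, 7114948 to 7119914) has no anatomy term in the tables. Its 15.9, 16.1, 6.16, 9.14, 2.06 and 12.6 FPKM followed the order of nas-14, and its nuo-6 value was 7.73-fold under WT. nas-30 (WBGene00003548, chromosome I, 942257 to 947711), annotated in rectal epithelium, intestine and neurons, had 12.4, 13.4, 6.8, 9.12, 3.3 and 10.7 FPKM and was 3.75-fold lower in nuo-6 than in WT. nas-29 (chromosome II, 5136717 to 5142036), which shares its locus with F58A6.2, had 6.07, 7.85, 3.16, 2.71, 2.43 and 5.31 FPKM. For it daf-2, the daf-2 triple mutant and nuo-6 were the low pools. nas-12, annotated in pharyngeal gland cells, had 4.23, 5.48, 0.831, 2.28, 0.883 and 3.37 FPKM, lowest in daf-2 and nuo-6.

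**Figure D2:**
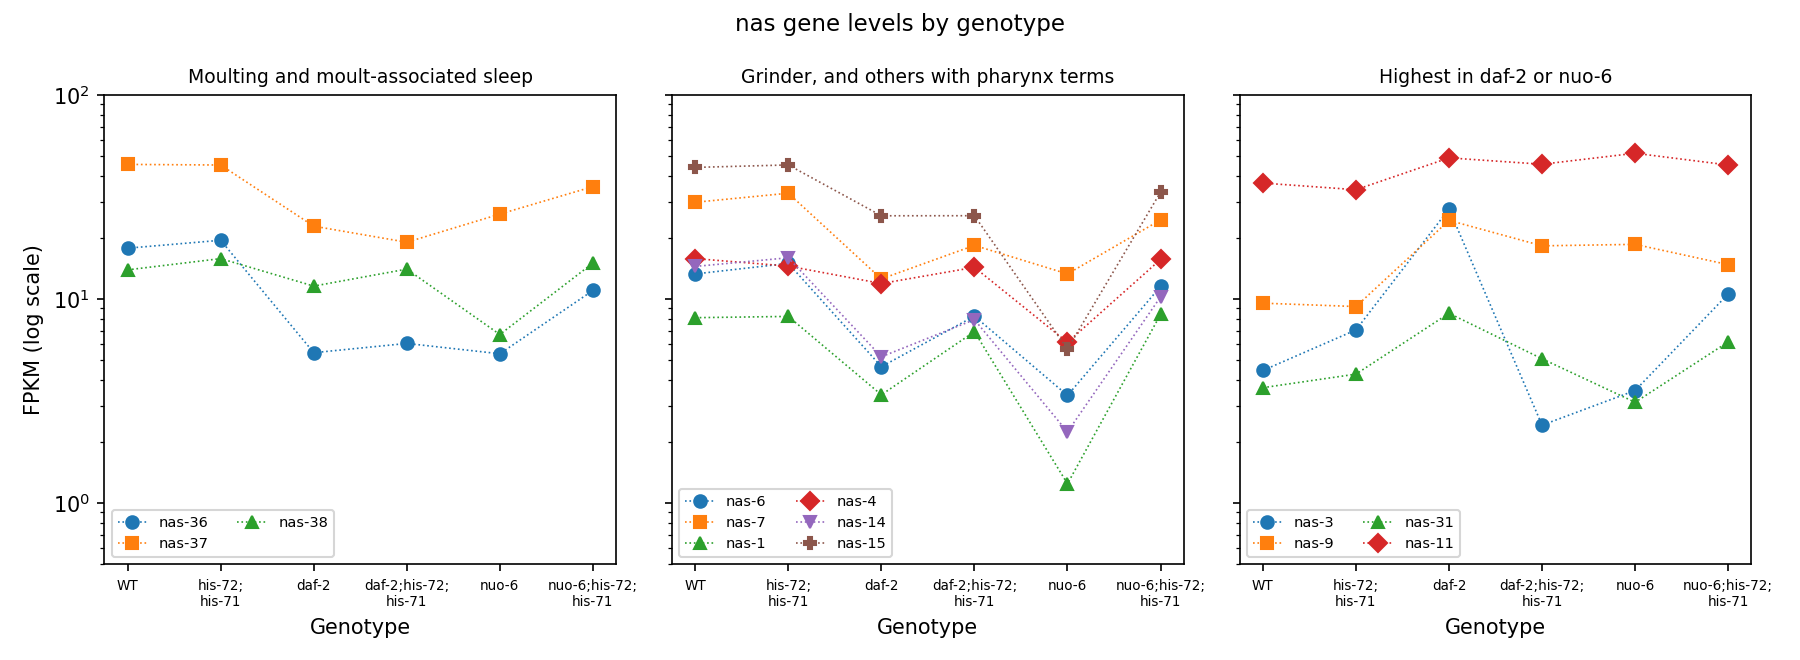
FPKM (log scale) by genotype for the moulting genes, for nas-6 and genes with pharynx annotation, and for genes highest in daf-2 or nuo-6, with 1 deposited value per point and dotted lines only to guide the eye. The genes of the middle panel are low in nuo-6, nas-15 at 5.68 FPKM against 44.2 in WT, whereas nas-11 stays between 34.3 and 51.8.

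Markers of the pharynx were set beside these members. Of 9 genes listed under pharyngeal muscle, pha-4 and marg-1 among them, 8 were compared. In nuo-6 against WT 5 of these were lower and 0 higher, beside 5.47% lower and 20.6% higher among all compared genes. The pharyngeal myosin genes myo-1 and myo-2 were 3.9-fold and 4.21-fold lower and the troponin gene tnt-4 4.77-fold. In daf-2 against WT 0 of 8 were lower and 0 higher, beside 13.2% and 15.1% of all compared genes. The muscle list's summed level ran from 1849 FPKM in the daf-2 triple mutant to 3453 in WT, and was 2432 in nuo-6, with no gene at 0 in any pool. Most of this sum came from mlc-1 and mlc-2, with 1099 and 2019 FPKM in WT and 728 and 1602 in nuo-6. It therefore says little about the other genes of the list. Of 8 genes for the pharyngeal glands, 4 of 7 compared were lower in daf-2 than in WT (phat-1 2.97-fold, phat-2 3.55-fold, phat-3 2.26-fold and phat-4 4.22-fold) and 2 were higher, phat-5 and dod-6. In nuo-6 against WT 4 of 6 gland genes were lower and 0 higher. The gland list summed to 386 FPKM in nuo-6 and to between 831 and 2240 in the other pools, largely through dod-6, with no gene at 0. The part of the pharynx in the lower nas levels was not tested.

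Other members were highest in daf-2 or nuo-6. nas-11 (WBGene00003530, chromosome X, 6713577 to 6718670), annotated in hypodermis and in glial sheath cells of sense organs, had 37 FPKM in WT, 34.3 in the double mutant, 49.2 in daf-2, 45.8 in the daf-2 triple mutant, 51.8 in nuo-6 and 45.4 in the nuo-6 triple mutant. It was the member with the highest single value, and its pools lay within a ratio of 1.51. It shares its locus with smf-2. nas-9 (WBGene00003528, chromosome V, 4836028 to 4840010), annotated in the hypodermis, uterus and spermatheca, had 9.54, 9.19, 24.3, 18.2, 18.5 and 14.7 FPKM in the same order. All 4 pools with a long-lived mutation exceeded both without, and the ratio passed 2 in daf-2 against WT (2.55-fold). nas-31 (WBGene00003549, chromosome V, 10918861 to 10921836), annotated in glial sheath cells and the excretory cell, had 3.68, 4.29, 8.52, 5.09, 3.12 and 6.16 FPKM and was 2.32-fold higher in daf-2 than in WT.

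nas-3 (WBGene00003522, chromosome V, 9478164 to 9479604), annotated in pharyngeal muscle, seam cells and intestine, had 4.47 FPKM in WT, 7.06 in the double mutant, 27.6 in daf-2, 2.41 in the daf-2 triple mutant, 3.56 in nuo-6 and 10.6 in the nuo-6 triple mutant. The daf-2 pool stood far above the rest and the daf-2 triple mutant was lowest. It was 6.18-fold higher in daf-2 than in WT, and 2.93-fold lower in the daf-2 triple than in the double mutant, 2 comparisons that share no pool. nas-23 (WBGene00003542, chromosome II, 7491471 to 7493643) had 10.9, 11.2, 2.31, 12.4, 4.52 and 5.68 FPKM, so that daf-2 was 4.7-fold under WT. Its daf-2 triple mutant value was close to those of WT and the double mutant. nas-28 (WBGene00003546, chromosome III, 6180966 to 6183218), annotated in pharynx, intestine and coelomocytes, had 0.941, 2.07, 2.02, 12.8, 0.319 and 1.99 FPKM. Only the daf-2 triple mutant exceeded 5 FPKM, 6.16-fold above the double mutant and 6.32-fold above daf-2. nas-5, annotated in marginal and gland cells of the pharynx, had 2.71, 5.03, 3.1, 6.16, 3.3 and 3.67 FPKM and passed a ratio of 2 in none of the 7 comparisons.

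A run of members lies on chromosome V. nas-16, nas-17, nas-18 and nas-19 (11391932 to 11402690) were at or under 0.0816 FPKM in every pool, nas-16 and nas-18 being listed at 0 in several. nas-20, nas-21 and nas-22 lie side by side farther along, at 11470800 to 11477951. nas-20 (WBGene00003539, 11470800 to 11472311) had 0.282 FPKM in WT, 0.13 in the double mutant, 0.0815 in daf-2, 7.17 in the daf-2 triple mutant, 25.7 in nuo-6 and 0.176 in the nuo-6 triple mutant. It stood above 5 FPKM in 2 pools and at or under 0.282 in the other 4. The ratios were 91.4-fold for nuo-6 over WT, 55-fold for the daf-2 triple over the double mutant, 87.9-fold for the daf-2 triple mutant over daf-2 and 147-fold for nuo-6 over the nuo-6 triple mutant. They rest on denominators from 0.0815 to 0.282 FPKM and are imprecise. nas-21 reached its highest value, 0.32 FPKM, in nuo-6, where it had 0.0332 in WT. nas-22, annotated in the uterus and its muscles, had 0.502 FPKM in WT, 0.203 in the double mutant, 0.585 in the daf-2 triple mutant, 2.02 in nuo-6 and 0.0853 in the nuo-6 triple mutant, and was listed at 0 in daf-2. All 3 neighbours were therefore highest in nuo-6, though nas-21 and nas-22 stayed under 5 FPKM. nas-22 also shares its listed locus with another gene, so its values are uncertain. The pools with nas-20 were also those in which the adult onset list was highest: col-19, an adult cuticle collagen, had 1194 FPKM in nuo-6, 158 in the daf-2 triple mutant and 1.29 to 7.1 in the other 4 pools. The 6 yolk protein genes and col-7 were likewise highest in these 2 pools. The adult cuticle collagen genes bli-1 and bli-2 differed in the daf-2 triple mutant. They had 5.11 and 19 FPKM there, against 90.6 and 272 in WT, and were 9.99-fold and 7.43-fold lower than in the double mutant. In nuo-6 bli-1 was near WT at 88.9 FPKM, and bli-2 had its highest value, 636 FPKM, 2.34-fold above WT. A part of adult stage in the nas-20 levels was not tested.

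**Figure D3:**
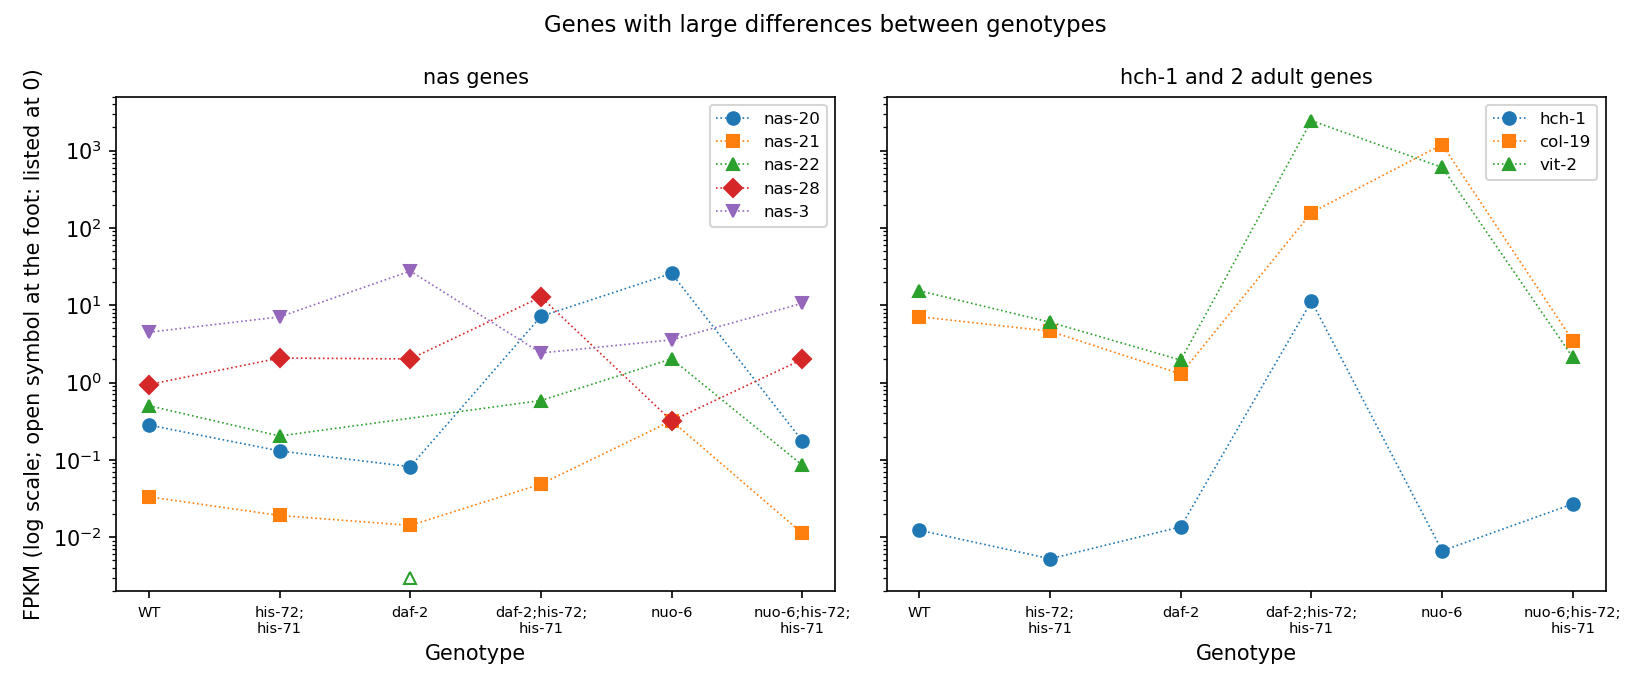
FPKM (log scale) by genotype for nas-20, nas-21, nas-22, nas-28 and nas-3, and, for comparison, for hch-1, col-19 and vit-2, with 1 deposited value per point, dotted lines only to guide the eye, and an open symbol where a value is listed at 0. nas-20 is at 25.7 FPKM in nuo-6 and 7.17 in the daf-2 triple mutant and at or under 0.282 elsewhere, and hch-1 reaches 11.2 in the daf-2 triple mutant only.

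The remaining members were low throughout. nas-39 (chromosome X, 16456927 to 16474664), the worm relative of BMP-1 and tolloid, which in flies and vertebrates release TGF-beta family signals from inhibitors, had 2.42, 2.84, 2.46, 2.57, 2.66 and 3.89 FPKM in the order above. It shares its listed locus with another gene. nas-13, annotated in sensory neurons, had 3.72, 4.12, 1.38, 2.7, 0.855 and 3.23 FPKM, and was lowest in nuo-6. nas-25, which has a pharynx term and shares its locus with F46C5.2, had 1.56, 2.1, 3.41, 2.87, 0.607 and 3.06 FPKM, again lowest in nuo-6. Of the rest, nas-32, nas-33 and nas-27 peaked between 2.61 and 3.21 FPKM and nas-22 at 2.02. Members under 1 FPKM in every pool numbered 8, namely nas-2, nas-10, nas-16, nas-17, nas-18, nas-19, nas-21 and nas-24. nas-2 was listed at 0 in all 6 pools.

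Of the 7 comparisons, the double mutant against WT came first. Of 18 members compared, 0 were higher and 0 lower, beside 1.14% higher and 0.902% lower, or 2.04% in either direction, of all 10972 compared genes. The widest ratio was that of nas-5 (1.86, from 2.71 to 5.03 FPKM), and the median log2 ratio was 0.12 over the members and 0.07 over all compared genes. In the nuo-6 background most members were higher without H3.3. Of 18 compared in the nuo-6 triple mutant against nuo-6, 11 were higher and 1 lower, beside 6.92% and 16.9%, or 23.8% together, of 11900 genes. The median log2 ratio was 1.15, against -0.10 for all compared genes. nas-1 was 6.76-fold, nas-8 6.12-fold, nas-15 5.88-fold and nas-14 4.59-fold higher, and nas-20 was the lower one. The single nuo-6 value of each gene also enters nuo-6 against WT below, so these comparisons are not independent. nas-1, nas-4, nas-6, nas-8, nas-14, nas-15, nas-29, nas-30, nas-36 and nas-38 were higher here and lower there, and nas-20 the reverse. Of these 18 members, 10 had 5 FPKM in 1 of the 2 pools only. With genes chosen instead by a mean over the 6 pools of at least 5 FPKM, 10 of 17 were higher and 1 lower, beside 6.86% and 13.3% of all genes so chosen. In the daf-2 background, 4 of 19 members were higher in the triple mutant (nas-1, nas-20, nas-23 and nas-28) and 1 lower (nas-3), beside 17.1% and 12.3%, or 29.4% together, of 11663 genes. The members' counts are close to these shares. Of these 19 members, 7 had 5 FPKM in 1 of the 2 pools only. By the mean over the 6 pools, 3 of 17 were higher and 1 lower, beside 16.8% and 11.7% of all genes so chosen. Genes of 20 FPKM or more in each pool had a median log2 ratio of -0.32 in this comparison, and relative to that shift 6 members were higher and 1 lower, beside 23.2% and 5.14% of all genes scaled the same way.

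For the daf-2 mutation with H3.3 present, daf-2 against WT, 3 of 17 compared members were higher (nas-3, nas-9 and nas-31) and 8 lower, beside 15.1% and 13.2%, or 28.3% together, of 11405 genes. The lower ones were nas-1, nas-6, nas-7, nas-8, nas-14, nas-23, nas-36 and nas-37, between 2.01-fold and 4.7-fold. Over the 17 members the median log2 ratio was -0.94, against 0.01 for all compared genes. Of these 17, 6 had 5 FPKM in 1 of the 2 pools only. With genes chosen by a mean over the 6 pools of at least 5 FPKM, 3 of 17 members were higher and 9 lower. Of all genes so chosen, 13.3% were higher and 14% lower. Without H3.3, in the daf-2 triple against the double mutant, 2 of 21 were higher (nas-20 and nas-28) and 6 lower (nas-3, nas-12, nas-14, nas-29, nas-36 and nas-37), beside 13.2% and 13.5%, or 26.7% together, of 11871 genes, with a median of -0.56 against -0.07. Relative to the median of genes with 20 FPKM or more in each pool, -0.17, the split was 3 higher and 5 lower, beside 15.9% and 10.3% of all genes. Of these 21 members, 6 had 5 FPKM in 1 of the 2 pools only. By the mean over the 6 pools, 1 of 17 was higher and 4 lower, beside 10.8% and 12.5% of all genes so chosen. nas-36 and nas-37 were lower in both of these comparisons, while nas-3 was higher in the first and lower in the second.

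For the nuo-6 mutation with H3.3 present most members were lower, while higher genes outnumbered lower ones among all genes. In nuo-6 against WT, 1 of 16 compared members was higher (nas-20) and 12 lower, beside 20.6% and 5.47%, or 26.1% together, of 11716 genes. The median log2 ratio was -1.34, against 0.12 over all compared genes. Lower were nas-1, nas-4, nas-6, nas-7, nas-8, nas-14, nas-15, nas-23, nas-29, nas-30, nas-36 and nas-38, from 2.07-fold (nas-38) to 7.77-fold (nas-15). Of the 16, 8 had 5 FPKM in 1 of the 2 pools only, and by a mean over the 6 pools of at least 5 FPKM, 1 of 17 was higher and 11 lower, beside 17.3% and 5.54% of all genes so chosen. Over all 33 members above 0 in both pools, at any level, 11 were above and 22 below WT. Without H3.3, in the nuo-6 triple against the double mutant, 0 of 19 members were higher and 0 lower, beside 5.76% higher and 6.73% lower, or 12.5% in either direction, of 11374 genes. The lowest ratio was that of nas-23 (1.98-fold lower, 11.2 and 5.68 FPKM) and the highest that of nas-9 (1.6-fold higher). The median there was -0.36, against -0.06 for all compared genes. For nas-15 the nuo-6 mutation thus went with a 7.77-fold lower level with H3.3 and a 1.36-fold lower level without it, and for nas-8 with 7.73-fold and 1.28-fold. For nas-1 the ratio of 6.52 in the one case compares with 8.4 and 8.22 FPKM in the other. These pairs of ratios share no pool, but their difference could not be tested.

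**Figure D4:**
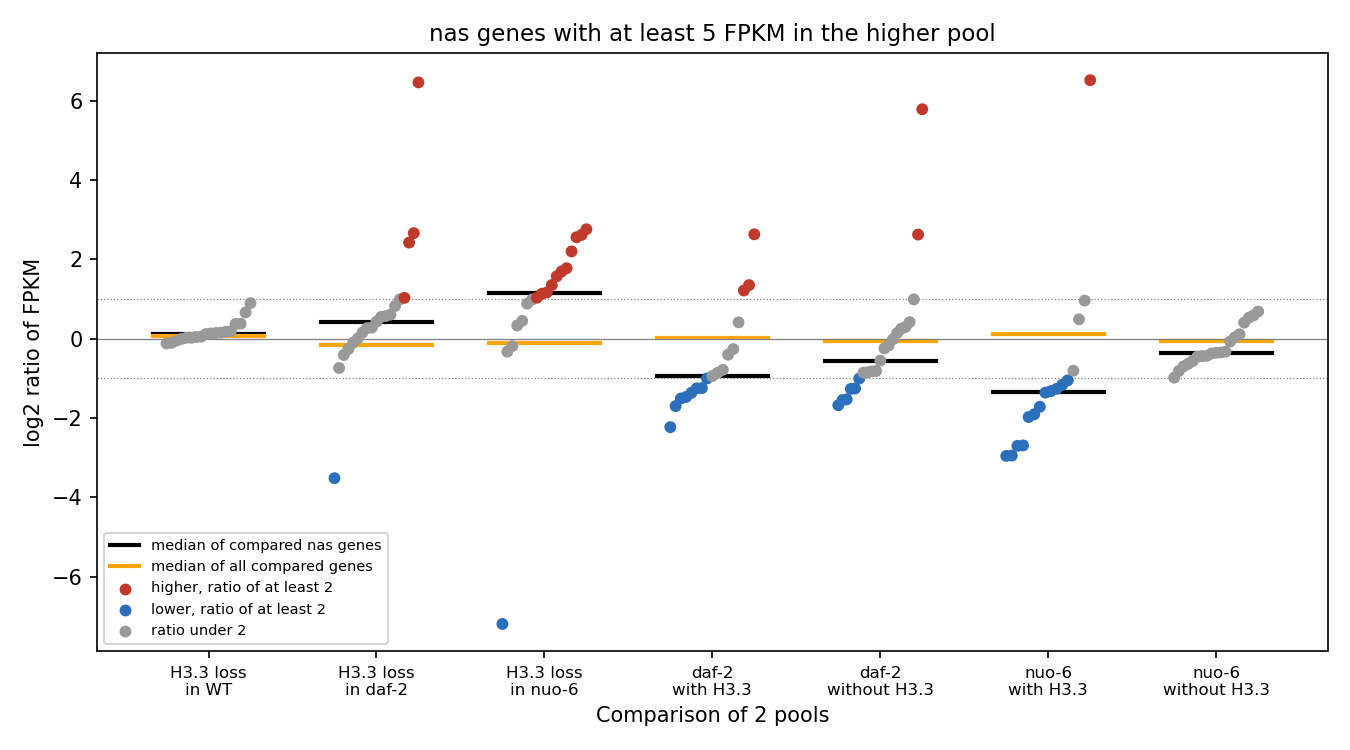
Log2 ratio of FPKM for each nas gene with at least 5 FPKM in the higher of the 2 pools, in 7 comparisons, with black and orange lines for the median of these genes and of all compared genes. In nuo-6 with H3.3 the 12 blue points below the dotted line contrast with 0 in nuo-6 without H3.3.

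**Figure D5:**
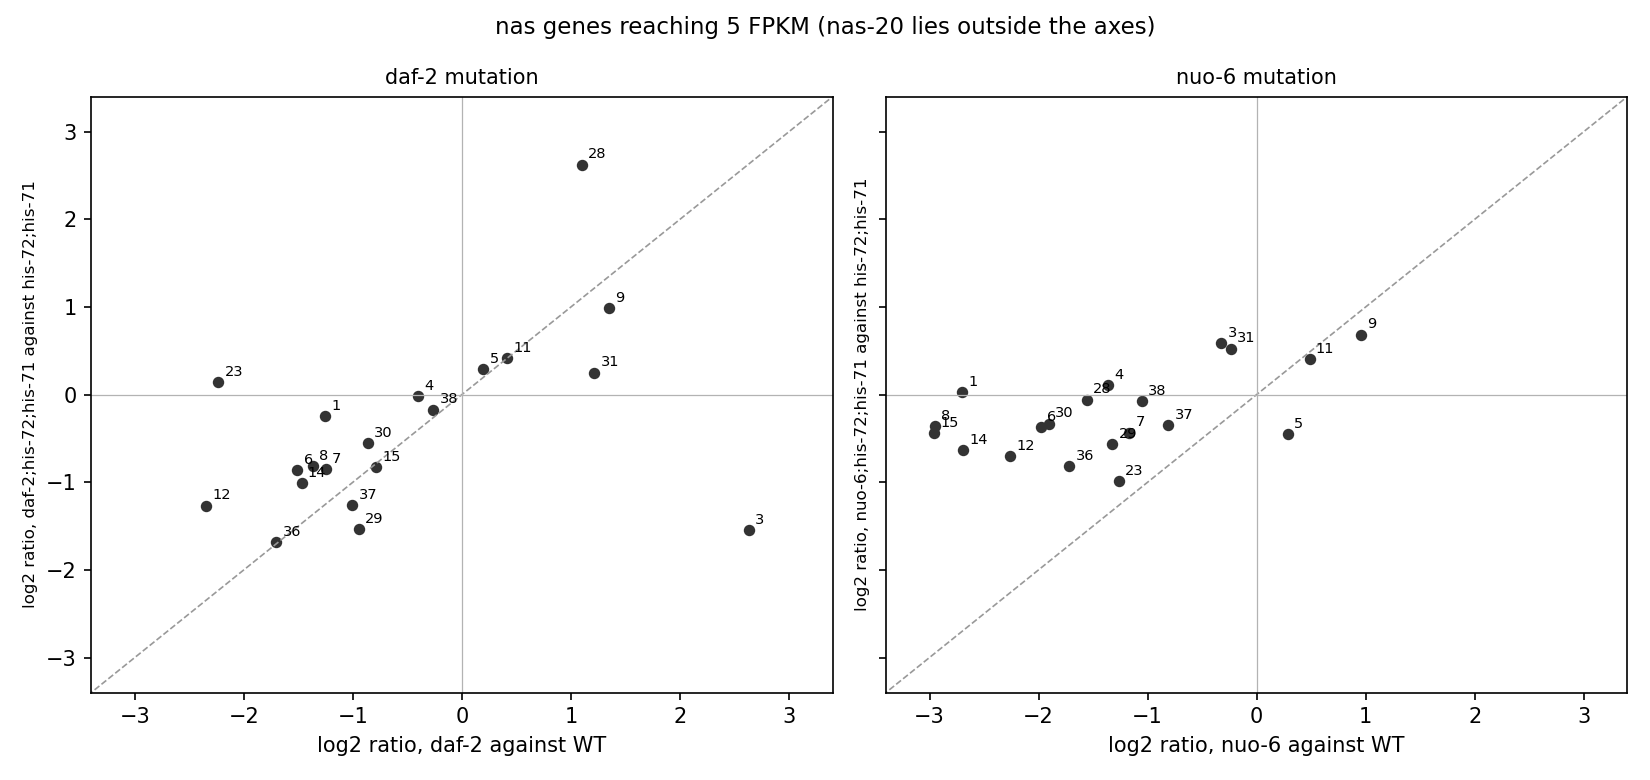
Log2 ratio of each mutation with H3.3 (x axis) and without it (y axis) for the nas genes that reached 5 FPKM, labelled by their number, with a dashed line of equal ratios. In the nuo-6 panel most points lie left of zero but close to it on the y axis, nas-15 at -2.96 and -0.44, while nas-36 and nas-37 lie near the dashed line in the daf-2 panel.

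The anatomy terms deposited with the tables divided the family in a way chosen after its values were seen. Pharynx terms without hypodermis were attached to 11 members, hypodermis terms without pharynx to 7, both to 5, other terms to 6 and none to 7. In nuo-6 against WT the median log2 ratio was -2.70 over the 4 compared members with pharynx terms, all lower. It was -1.22 over the 4 with both, and -0.28 over the 4 with hypodermis terms, of which 2 were lower. Of all compared genes 5.47% were lower. Among these members nas-1, nas-14, nas-6 and nas-23 had 5 FPKM in WT only, which favours lower ratios. The pharynx members nas-5 (1.22-fold higher), nas-12 (4.79-fold lower) and nas-28 (2.95-fold lower) were under 5 FPKM in both pools and not compared. With so few members this describes these pools only.

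Of the astacin genes under other names, hch-1, which encodes the hatching protease, had 11.2 FPKM in the daf-2 triple mutant and at most 0.0269 elsewhere. In the same pool a list of 14 oocyte genes summed to 3613 FPKM, against 38.3 in daf-2 and 100.3 in WT. The oocyte list was also high in nuo-6, at 572 FPKM, where hch-1 had 0.00665 FPKM. There 11 of 13 compared oocyte genes were above WT by the same rule, beside 20.6% of all compared genes. The part of oocytes or stage in the hch-1 level was not tested. dpy-31, for a protease that processes cuticle procollagen, had 37.2 FPKM in WT, 34.9 in the double mutant, 62.4 in daf-2, 35.8 in the daf-2 triple mutant, 30.7 in nuo-6 and 38.4 in the nuo-6 triple mutant, and passed a ratio of 2 in no comparison. sqt-3, a cuticle collagen that it processes, was 2.98-fold lower in daf-2 and 3.15-fold lower in nuo-6 than in WT. toh-1 ran from 17.2 FPKM in nuo-6 to 41.7 in the nuo-6 triple mutant.

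Of the 26 genes of the moulting cycle, 11 were lower and 0 higher in nuo-6 against WT, where 5.47% of all genes were lower. In the daf-2 triple against the double mutant 11 were lower and 0 higher, where 13.5% of all genes were lower. In daf-2 against WT 5 were lower and 0 higher, near the 13.2% of all genes. These were mlt-10 and the collagen genes dpy-7, rol-6, sqt-1 and sqt-3. In the nuo-6 triple against the double mutant the counts were 0 and 0. In the daf-2 triple mutant against daf-2, where 4 nas genes were higher, 0 moulting cycle genes were higher and 4 lower, beside 17.1% and 12.3% of all genes. In the nuo-6 triple mutant against nuo-6, 2 were higher and 0 lower, beside 6.92% and 16.9%. In the double mutant against WT 0 were higher and 0 lower. mlt-10, required for moulting, was 3.04-fold lower in nuo-6 and 5.17-fold lower in daf-2 than in WT, and the nuclear receptor gene nhr-25, which acts in moulting and in epidermal development, was 3.64-fold lower in nuo-6. For other extracellular metalloproteases, in nuo-6 against WT 3 of 13 were lower and 0 higher, beside the same 5.47% lower, among them the neprilysin gene nep-1 (2.95-fold) and adt-1, of the ADAMTS family (2.36-fold). In the nuo-6 triple mutant against nuo-6, 4 of 15 were higher, beside 6.92% of all genes, gon-1, an ADAMTS gene needed for gonad shape, by 2.62-fold. Of 3 inhibitor genes found in the tables, timp-1, for a tissue inhibitor of metalloproteases, was 3.25-fold higher in daf-2 than in WT (28.2 and 91.6 FPKM) and 2.52-fold higher in the daf-2 triple than in the double mutant. In that last comparison mig-6, for a papilin-like matrix protein, was 2.3-fold lower, and cri-2 was not called in any.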

How the data were processed

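Messenger RNA of whole late L4 worms was sequenced by the submitters from 6 genotypes. The deposited values are FPKM, computed by the authors before deposit, per the file headers, with 1 value per gene and genotype. Cuffdiff, Cufflinks, STAR and FastQC are the tools listed, with no version, per the submitters' processing notes. How replicates were combined, strandedness and the genome build are not given in the sources used here. Listed starts appear to count from 0. Of 16497 genes not sharing a locus, 5258 lie 1 below their WBcel235 start and 366 equal it, while the rest do neither. Printed positions are those of the tables with the start raised by 1.

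Values were used as deposited with Python 3.11.15, pandas 2.3.3 and NumPy 2.4.6, without pseudocount. Calls needed a ratio of 2 and 5 FPKM in the higher pool, and the rule was run on simulated data. That run checks only how the rule was coded, not how often calls in these data are wrong. Levels listed at 0 were left out of ratios. Members sharing a listed locus with another gene (7) are uncertain. Every member reaching 5 FPKM is named, with all 6 values for those called in a comparison. Alternatives changed the ratio, the minimum, the scaling, the pseudocount and the handling of zeros and shared loci. Members, lists and comparisons were chosen with earlier results of these data known. One list gene, tag-225, was not matched. Protein and genome sequences were not used here.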

Additional observations from a re-analysis of the deposited data

Results flagged for a closer look

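Calls in opposite directions stood out for 2 genes, each with 1 value per pool, and the differences were not tested. For nas-3, H3.3 loss went with an 11.5-fold lower level in the daf-2 background (27.6 and 2.41 FPKM) and a 2.97-fold higher one in nuo-6 (3.56 and 10.6). The daf-2 mutation went with a 6.18-fold higher nas-3 level with H3.3 and a 2.93-fold lower one without it. For nas-20, H3.3 loss went with an 87.9-fold higher level in the daf-2 background and a 147-fold lower one in nuo-6.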

How the results depend on the processing

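The number of nas genes counted changed in no comparison by over 1.5 times after scaling the pools to a common median ratio, when 1 FPKM was added, genes listed at 0 were kept or members sharing a locus were left out. With a ratio of 3 it became 7 of 18 in H3.3 loss in nuo-6 and 3 of 17 in daf-2 with H3.3. It became 3 of 21 in daf-2 without H3.3 and 8 of 16 in nuo-6 with it. Of all genes, 2.6%, 6.97%, 8.64% and 11.2% were higher in that order, and 10.5%, 7.15%, 5.32% and 2.31% lower. With a ratio of 1.5 it became 2 of 18 in H3.3 loss in WT and 9 of 19 in H3.3 loss in daf-2. It became 13 of 21 in daf-2 without H3.3 and 5 of 19 in nuo-6 without it. Of all genes, 5.14%, 25.3%, 21.6% and 12.5% were higher in that order, and 2.36%, 30.3%, 26.6% and 13% lower. The counts for H3.3 loss in daf-2 and for nuo-6 without H3.3 are close to or under these shares. With no minimum it was 21 of 33 for H3.3 loss in nuo-6, 11 of 31 in daf-2 and 4 of 33 in WT. Of all genes, 16%, 24.2% and 5.91% were higher there and 19.1%, 13.2% and 3.3% lower. It was 20 of 31 and 16 of 34 for daf-2 with and without H3.3, and 22 of 33 and 2 of 33 for nuo-6. Of all genes, 20.8%, 18.1%, 22.9% and 11.6% were higher there and 18.7%, 17.3%, 10.7% and 12.2% lower. With 20 FPKM only 4 to 6 members are compared, and it was 1 of 5 and 2 of 5 for H3.3 loss in daf-2 and nuo-6. It was 4 of 6 and 1 of 4 for daf-2 with and without H3.3, and 3 of 5 for nuo-6 with H3.3. Of all genes, 14.9%, 4.49%, 15.2%, 12.6% and 20% were higher in that order, and 13.6%, 15.2%, 9.39%, 12.2% and 4.76% lower. A mean over the 6 pools of at least 5 FPKM was an alternative chosen after seeing the data. With it the number was 1 of 17 in H3.3 loss in WT and 5 of 17 in daf-2 without H3.3. Of all genes, 1.05% and 10.8% were higher and 1.31% and 12.5% lower. The direction of a called gene could not turn under these alternatives, so its constancy is no check. Only the scaling can change the sign of a ratio. Its widest log2 median ratio, -0.32 for H3.3 loss in daf-2, is smaller than the ratio of 2 that a call needs. No paired analysis was possible because the tables hold no values per replicate, and leaving out replicates could not be run for the same reason. Unknown depth limits ratios against levels under 0.1 FPKM.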

Other observations

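Among genes of the pharyngeal glands, which secrete into the lumen of the pharynx, phat-2 was 8.06-fold and phat-1 7.22-fold lower in nuo-6 than in WT. Of 7 compared, 5 were higher in the nuo-6 triple mutant than in nuo-6, beside 6.92% of all compared genes. Both comparisons share the nuo-6 pool. phat-5 was 7.97-fold higher in the double mutant than in WT (8.52 and 1.07 FPKM). Of 8 genes of vulva development, 2 of 6 compared were lower in nuo-6 than in WT, beside 5.47% of all compared genes, and lin-3, which encodes the EGF-like inducer of the vulva, had 15.5 FPKM in the daf-2 triple mutant and 4.91 to 5.92 in the other pools.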
